A study of Mus musculus with 240 samples.

Results

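The transcripts of 5 hemoglobin genes were followed in 3 brain regions of 8 inbred mouse strains. The genes were the adult alpha-globin genes Hba-a1 and Hba-a2, the adult beta-globin genes Hbb-bs and Hbb-bt, and Alas2, which encodes the erythroid form of 5-aminolevulinate synthase. They are 5 of the 55414 genes of the count table and were taken by gene symbol. The set was chosen on measured values, because Hba-a2 had stood out in an earlier comparison of B6 with the other strains in these data. Levels and shares of the 5 genes by strain are therefore given as a description, with no test. Regions and sexes were not part of that choice and were tested. All 5 genes passed the filter on low values, a mean of at least 1 CPM (counts scaled to a common library total, the unit of all levels here) over the libraries used, which left 14764 genes. Hba-a2 had the lowest mean of the 5, at 1.39 CPM, so it lay just inside that limit, which it passed only through B6 and S129. By the GENCODE annotation of GRCm38, Hba-a1 lies at chr11:32283511-32284465 and Hba-a2 at chr11:32296489-32297298, both on the plus strand, Hbb-bs at chr7:103826534-103828096 and Hbb-bt at chr7:103812524-103813996, both on the minus strand, and Alas2 at chrX:150547375-150570638 on the plus strand. All 5 are protein-coding, and their counts come from poly(A) RNA.

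The strains were the wild-derived WSB/EiJ, PWK/PhJ and CAST/EiJ and the classical NZO/HILtJ, C57BL/6J (B6), 129S1/SvImJ (S129), NOD/LtJ (NOD/ShiLtJ in the study's text) and A/J (AJ), each called here by its short label, the founders of the Collaborative Cross panel. Each strain was represented by 3 female and 3 male naive mice without any treatment, 8 weeks old by the deposited description, and CeA (the amygdala's central nucleus), PrL (prelimbic cortex) and NAcc (the core of the nucleus accumbens) were punched from the frozen brain of every mouse. The study's methods state an older age. Used here were 143 libraries, 18 per strain and 17 for B6, because 1 B6 NAcc library was left out of the table of normalized values that the authors deposited. These libraries held 14942820 to 33951616 counts, with a median of 24456928. No perfusion is described in the sources used here, and a punch can hold blood, vessel wall and meninges beside neurons and glia. In such bulk tissue, fewer cells of a type and less RNA per cell cannot be told apart.

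Regional neuron markers were checked first. Slc17a7, the vesicular glutamate transporter of cortical projection neurons, was at 1366 CPM or more in all 48 PrL libraries and had a median of 5.14 CPM in NAcc. It reached 100 CPM or more in 5 of 47 NAcc libraries, 3 of them B6. In CeA its median was 915 CPM, beside 1802 CPM in PrL, and it lay below 100 CPM in 4 of 48 CeA libraries. The study describes the primary neurons of CeA as inhibitory, so low Slc17a7 alone does not mark another region there. Drd2, the dopamine D2 receptor of striatal neurons, was at 50 CPM or more in 1 PrL library and at 100 CPM or more in 11 of 48 CeA libraries. In CeA, 15 of 48 libraries had choroid plexus genes summing to 100 CPM or more. These libraries differed from most libraries of their region in these markers. Region results are given with and without them, except that the CeA libraries with high Drd2 were not left out as a set.

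Adult hemoglobin is a tetramer of alpha and beta chains, each holding a heme group, and it is made in erythroid cells. Alas2 encodes the first and rate-limiting enzyme of heme synthesis in these cells and lies on the X chromosome, while Alas1 does the same step in other tissues. Maturing red cells lose their nucleus and keep globin RNA for a time, and globin transcripts have also been described in neurons and glia. The beta-globin locus of inbred mice occurs in different haplotypes, and Hbb-bs and Hbb-bt are the adult genes of the haplotype in the reference genome, which comes from B6. Reads of all strains were aligned to that reference with at most 3 mismatches per 100 bases.

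The gene pairs are almost identical, which bears on how reads were shared between their members. In the annotated transcripts of GRCm38 (GENCODE), the coding sequences of Hba-a1 and Hba-a2, 429 bases each, differed at 1 position, C381T, counted from 1 at the A of the start codon with the Hba-a1 base first. The change lies in codon 127, GAC in Hba-a1 and GAT in Hba-a2, and is synonymous. Hbb-bs and Hbb-bt, 444 coding bases each, also differed at 1 position, C417T, in codon 139, GCC in Hbb-bs and GCT in Hbb-bt, and this change is synonymous too. The stretches around both positions are shown because they are the only coding bases at which a read can tell the members of a pair apart, with the differing base in capitals.
Hba-a1, coding bases 351 to 411: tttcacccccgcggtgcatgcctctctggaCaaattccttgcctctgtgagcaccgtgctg
Hba-a2, coding bases 351 to 411: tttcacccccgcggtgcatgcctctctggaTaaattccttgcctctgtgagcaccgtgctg
Hbb-bs, coding bases 387 to 444: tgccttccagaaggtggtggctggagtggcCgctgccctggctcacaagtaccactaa
Hbb-bt, coding bases 387 to 444: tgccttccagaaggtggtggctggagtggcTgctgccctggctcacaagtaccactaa
Of the 330 windows of 100 bases in the alpha coding sequence, 281 (85.2%) were the same in both genes. Of the 345 windows in the beta coding sequence, 317 (91.9%) were the same. Past the stop codon, the 74 annotated bases of Hba-a2 were all shared with Hba-a1, whereas Hbb-bs and Hbb-bt differed from the first base on. Over the whole annotated transcripts, windows not found in the partner were 261 of 600 for Hba-a1, 116 of 455 for Hba-a2, 198 of 529 for Hbb-bs and 273 of 604 for Hbb-bt. The annotated Hba-a1 transcript starts at chr11:32283511, inside the stretch up to chr11:32283671 that is given below as its promoter. That stretch is almost wholly shared with Hba-a2 in the genome. The transcript counts of the alpha pair thus depend on annotated ends and do not measure how much sequence tells the genes apart. Whether reads that fit both genes were counted is not given in the sources used here, so the split within a pair rests on the reads that cover differing bases.

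The promoters are shown because 4 of the 5 genes carry the classical elements of a globin promoter and because the genes moved together across regions. Each run is the 250 bases before the RefSeq start of transcription on GRCm38.p6, read along the gene's strand. Capitals mark the TATA element ATATAA, the CCAAT box (letters CCAAT), the CACCC box (letters CACCC) and the GATA factor motif GATAAG. All were searched on both strands, matches on the opposite strand show as their reverse complement, and no matches overlapped.
Hba-a1, chr11:32283422-32283671, plus strand: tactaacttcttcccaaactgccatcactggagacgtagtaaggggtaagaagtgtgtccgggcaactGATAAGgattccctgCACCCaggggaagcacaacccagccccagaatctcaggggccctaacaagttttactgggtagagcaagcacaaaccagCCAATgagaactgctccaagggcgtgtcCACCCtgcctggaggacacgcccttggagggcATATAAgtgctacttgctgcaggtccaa
Hbb-bs, chr7:103827929-103828178, minus strand: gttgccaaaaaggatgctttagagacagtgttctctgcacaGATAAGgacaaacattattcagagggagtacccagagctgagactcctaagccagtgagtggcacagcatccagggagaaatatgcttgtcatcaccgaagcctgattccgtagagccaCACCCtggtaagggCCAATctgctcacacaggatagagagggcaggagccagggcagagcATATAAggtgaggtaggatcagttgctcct
Hbb-bt, chr7:103813924-103814173, minus strand: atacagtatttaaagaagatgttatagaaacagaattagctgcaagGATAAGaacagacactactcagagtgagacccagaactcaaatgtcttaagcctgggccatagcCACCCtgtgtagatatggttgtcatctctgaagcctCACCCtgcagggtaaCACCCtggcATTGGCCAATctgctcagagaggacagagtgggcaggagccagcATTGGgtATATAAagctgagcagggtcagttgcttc
Alas2, chrX:150547167-150547416, plus strand: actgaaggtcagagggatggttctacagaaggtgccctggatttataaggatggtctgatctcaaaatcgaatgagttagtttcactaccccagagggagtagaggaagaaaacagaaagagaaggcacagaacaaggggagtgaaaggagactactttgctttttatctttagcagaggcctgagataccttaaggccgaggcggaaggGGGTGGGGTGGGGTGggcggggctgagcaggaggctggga
The window of Hba-a2, chr11:32296242-32296491 on the plus strand, is not printed because it shared 297 of 300 bases, the first 50 transcribed bases included, with that of Hba-a1. ATATAA began 28, 31, 30 and 29 bases before the start in Hba-a1, Hba-a2, Hbb-bs and Hbb-bt, and GATAAG began 182, 185, 209 and 204 bases before it. Alas2 held 3 copies of CACCC on the opposite strand and none of the other 3 motifs in these letters. Over 32851 windows of this length, ATATAA was found in 9.10%, CCAAT in 33.8%, CACCC in 52.0%, GATAAG in 6.55% and all 4 together in 0.140%.

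Hba-a2 had reads in 2 strains and almost none in the other 6. In B6, the 6 CeA libraries held 126, 131, 103, 96, 156 and 103 counts of Hba-a2, the 5 NAcc libraries 79, 108, 108, 75 and 92, and the 6 PrL libraries 233, 161, 135, 167, 744 and 136. In S129, the CeA libraries held 76, 62, 52, 70, 58 and 79 counts, the NAcc libraries 53, 54, 118, 98, 74 and 60, and the PrL libraries 255, 92, 154, 231, 178 and 124. In AJ, NOD, NZO, CAST, PWK and WSB together, 94 of 108 libraries had 0 counts and the highest held 5, a CAST library. The lowest B6 or S129 library, at 2.00 CPM, thus lay above the highest library of the other 6 strains, at 0.186 CPM, with no overlap.

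That separation was found for few genes. All B6 and S129 libraries lay above all others for Hba-a2 in each region, and for no other hemoglobin gene. Among the 14764 genes the same held for 0.0271% in CeA, 0.0271% in NAcc and 0.0474% in PrL. Because Hba-a2 was chosen for its level in B6, these values only describe it. In CPM, median Hba-a2 in B6 was 4.55 in CeA, 3.92 in NAcc and 6.29 in PrL, and in S129 it was 2.52, 2.75 and 7.48. The ranges of B6 and S129 did not overlap in CeA (4.09 to 6.10 and 2.00 to 3.04 CPM) and did so in NAcc and PrL. No strain beside these 2 had a median of Hba-a2 above 0 in CeA or NAcc, and in PrL CAST alone did, at 0.0668 CPM.

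As a share of alpha-globin counts, the sum of Hba-a1 and Hba-a2, the strains separated in the same way. The Hba-a2 share was 22.5 to 36.1% over 17 B6 libraries (mean 27.5% ± 3.75, SD) and 22.9 to 33.9% over 18 S129 libraries (mean 28.4% ± 3.64, SD), so the S129 range lay within that of B6. Pooled over libraries, 2753 of 9598 alpha counts in B6 were Hba-a2 (28.7%, 95% Wilson interval 27.8 to 29.6%) and 1888 of 6494 in S129 (29.1%, 28.0 to 30.2%). In the other strains the pooled share was 0.0694% in CAST (15 of 21619 counts), 0.0441% in PWK (6 of 13611), 0.0183% in AJ (2 of 10951), 0.0104% in NZO (1 of 9619) and 0.00646% in NOD (1 of 15473). In WSB, 0 of 5102 alpha counts were Hba-a2, which allows a share of up to 0.0588%. Intervals and limits cover counting error only. Whether reads that fit both genes were counted is not given, so these are shares of counts and not of transcripts.

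**Figure D1:**
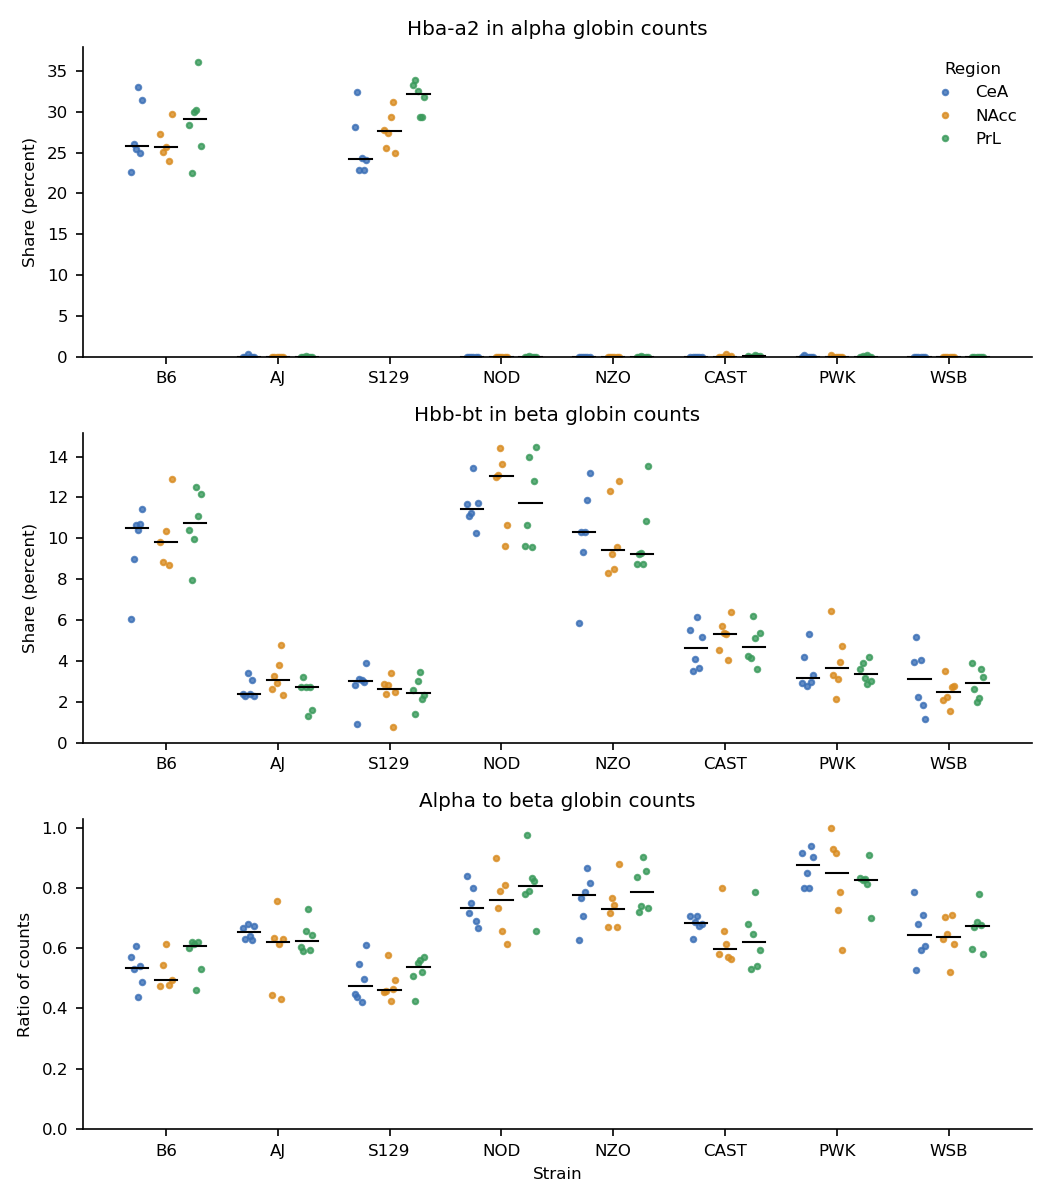
Each point is a library, grouped by strain on the x axis and coloured by region, and the black bars are medians. The upper panel plots the Hba-a2 share of alpha-globin counts in percent, at 22.5% or more in B6 and S129 and under 0.4% elsewhere; the middle panel the Hbb-bt share of beta-globin counts in percent, highest in B6, NOD and NZO; the lower panel the ratio of alpha to beta counts, highest in PWK.

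The beta pair divided the strains in another way. The Hbb-bt share of beta-globin counts had its highest medians in NOD at 11.7%, B6 at 10.4% and NZO at 9.47%. CAST followed at 5.16%, PWK at 3.33%, S129 at 2.82%, AJ at 2.73% and WSB at 2.67%. Over libraries the share was 5.88 to 14.5% in the 53 libraries of NOD, B6 and NZO and 0.781 to 6.45% in the 90 libraries of the other 5 strains, so 2 libraries of the first and 4 of the second fell in the overlap. B6 and S129, whose ranges of the Hba-a2 share overlapped, had Hbb-bt shares that lay apart (10.2% ± 1.72 and 2.59% ± 0.842, SD, n = 17 and 18), without overlap. Neighbouring strains within the high and within the low set overlapped in range. The strain medians moved little between regions, in B6 from 9.80% in NAcc to 10.8% in PrL and in S129 from 2.46% in PrL to 3.02% in CeA. The Hbb-bt CPM were low in some strains, with 2 to 27 counts per library in WSB and 4 to 49 in S129, so shares in single libraries of these strains are imprecise.

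Hbb-bs, the beta-globin gene with most counts, was found in every library. Its median over the regions was 50.5 CPM in CAST and 13.8 CPM in WSB, the highest and lowest strains, a ratio of 3.67. In PrL, CAST libraries ranged from 51.4 to 227 CPM with a median of 135 CPM, and WSB libraries from 9.55 to 40.3 CPM with a median of 25.9 CPM, without overlap. In CeA and NAcc, CAST had medians of 35.6 and 37.1 CPM and WSB of 12.2 and 13.5 CPM, and their ranges overlapped in NAcc but not in CeA. When strains were ordered by median, all 7 pairs of neighbours overlapped in range in each region, so the order between neighbours is not resolved by these libraries.

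Hba-a1 followed a similar order. Its median was highest in CAST in CeA (25.9 CPM) and PrL (99.6 CPM) and in NOD in NAcc (24.4 CPM). It was lowest in S129 in all regions, at 7.27 CPM in CeA, 6.70 CPM in NAcc and 16.7 CPM in PrL, close to WSB at 8.27, 7.99 and 17.0 CPM. B6 had medians of 13.3, 11.3 and 17.5 CPM, with a PrL range of 11.6 to 67.4 CPM. WSB, with 0 counts of Hba-a2, thus had lower medians of Hba-a1 than B6 in every region, and their ranges overlapped. The counts of both alpha genes were summed and divided by those of both beta genes. This ratio, not corrected for length or for reads that fit both genes, had its lowest medians in S129 (0.496) and B6 (0.539). It was higher in AJ (0.632), CAST (0.652), WSB (0.657), NZO (0.754) and NOD (0.784) and highest in PWK (0.831), and all 7 pairs of neighbours overlapped.

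Hbb-bt itself had median levels from 0.376 CPM in WSB to 4.33 CPM in NOD over all regions, a ratio of 11.5, wider than for Hbb-bs. In CeA the 6 NOD libraries lay between 2.59 and 6.84 CPM and the 6 WSB libraries between 0.0749 and 0.614 CPM. Alas2 ranged less. Its median over regions was 0.712 CPM in WSB and 2.93 CPM in CAST, and in PrL the medians were 1.27 and 5.88 CPM with ranges of 0.584 to 1.66 and 2.84 to 12.2 CPM. Relative to 100 beta-globin counts, Alas2 had 4.99 to 7.25 counts as strain medians, lowest in AJ and highest in PWK, with overlapping libraries.

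**Figure D2:**
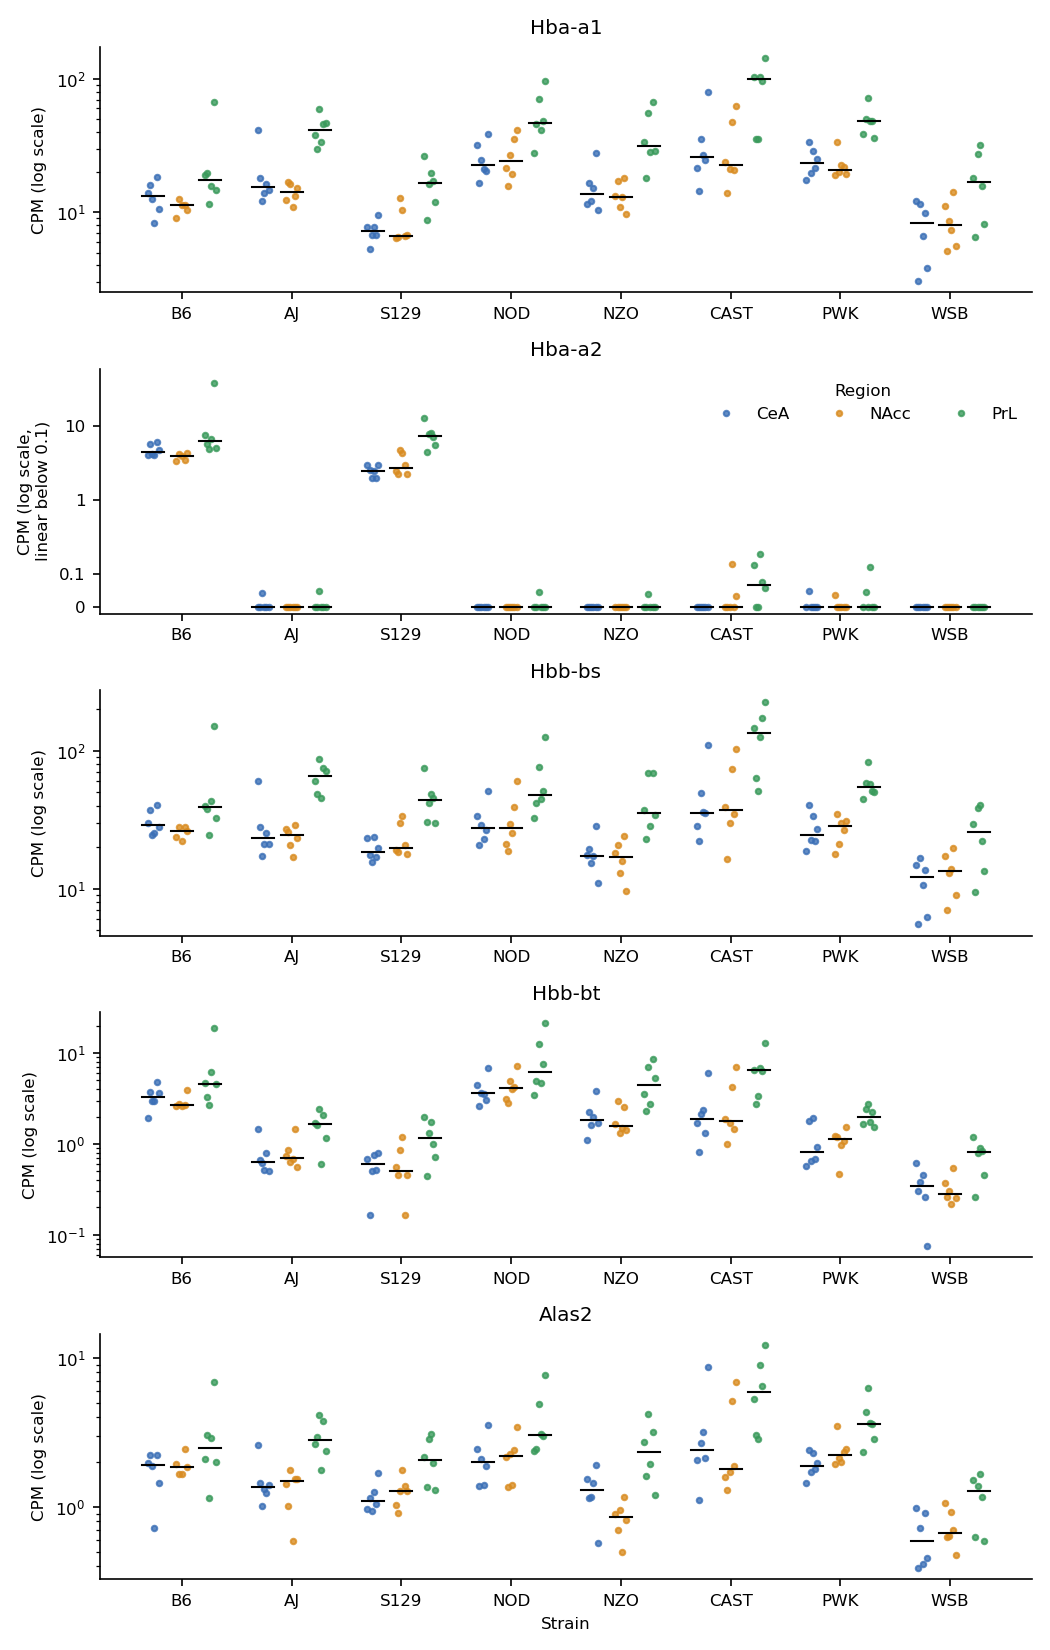
CPM of each hemoglobin gene in each library, by strain on the x axis and region in colour, with medians as black bars, on log axes (the Hba-a2 axis is linear below 0.1 CPM so that libraries at 0 can be drawn). PrL medians lie above CeA and NAcc medians in every strain for Hba-a1, Hbb-bs, Hbb-bt and Alas2, and Hba-a2 sits at or near 0 in the 6 strains beside B6 and S129.

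The regions were compared in 1 limma voom model of all 14764 genes with strain-by-region means, sex and sequencing tray, each contrast being the mean over strains. Hemoglobin genes were higher in PrL than in both subcortical regions. Hba-a1, Hbb-bs, Hbb-bt and Alas2, the 4 with counts in all strains, were called at an adjusted p under 0.05 against CeA, where 37.1% of all genes were called higher in PrL, and against NAcc, where 39.4% were. Hba-a2, which passed the filter only through B6 and S129, is described apart from them. Between CeA and NAcc none of the 5 was called, where 68.8% of genes were, and the 5 differences lay between -0.07 and 0.11 on the log2 scale. At an unadjusted p under 0.05 the count there was 0 of 5 by limma, edgeR and DESeq2. The log2 differences of the 4 genes were -1.17 to -0.93 in CeA minus PrL and -1.27 to -0.96 in NAcc minus PrL, beside medians of 0.00 and 0.02 over all genes.

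Hbb-bs was lower in CeA than in PrL by a log2 difference of -1.17 ± 0.12 (SE, adjusted p 4.39e-16) and lower in NAcc by -1.20 ± 0.12 (adjusted p 7.59e-17). Its CPM was 5.52 to 110 with a median of 23.1 in the 48 CeA libraries, 7.02 to 104 with a median of 23.4 in the 47 NAcc libraries and 9.55 to 227 with a median of 47.1 in the 48 PrL libraries. The regions overlapped across strains, but within mice PrL was higher than CeA in 46 of 48 and higher than NAcc in 46 of 47. For Hba-a1 the differences were -1.16 ± 0.12 (adjusted p 1.77e-15) and -1.27 ± 0.13 (adjusted p 2.70e-17), with medians of 15.6, 14.0 and 34.6 CPM in CeA, NAcc and PrL. PrL exceeded CeA in 44 of 48 mice and NAcc in 46 of 47 mice for this gene.

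For Hbb-bt the log2 differences were -1.13 ± 0.18 in CeA minus PrL (adjusted p 9.36e-09) and -1.11 ± 0.18 in NAcc minus PrL (adjusted p 1.02e-08), and PrL was higher in 42 of 48 and 43 of 47 mice. For Alas2 they were -0.93 ± 0.13 (adjusted p 3.38e-10) and -0.96 ± 0.13 (adjusted p 9.83e-11), with PrL higher in 45 of 48 and 46 of 47 mice. Alas2 thus had the direction of the globin genes in both contrasts.

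At or near 0 counts a log2 value reflects library size. No adjusted p of Hba-a2, here or by tray, can therefore decide whether its level differed between regions. The contrast of Hba-a2 over all strains includes 6 strains with such counts. It was -0.80 ± 0.25 in CeA minus PrL (adjusted p 0.00318) and -0.73 ± 0.25 in NAcc minus PrL (adjusted p 0.00609), and under edgeR's quasi-likelihood test its adjusted p was 1 in both, while DESeq2 called all 5 genes. As a mean over B6 and S129 alone, chosen after seeing the data, the limma differences were -1.22 and -1.20, given as a description with no test. In B6, PrL exceeded CeA in 6 of 6 mice, with a median ratio of 1.42, and in S129 in 6 of 6 mice, with a median ratio of 3.44. Against NAcc it was higher in 5 of 5 B6 mice and 6 of 6 S129 mice.

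**Figure D3:**
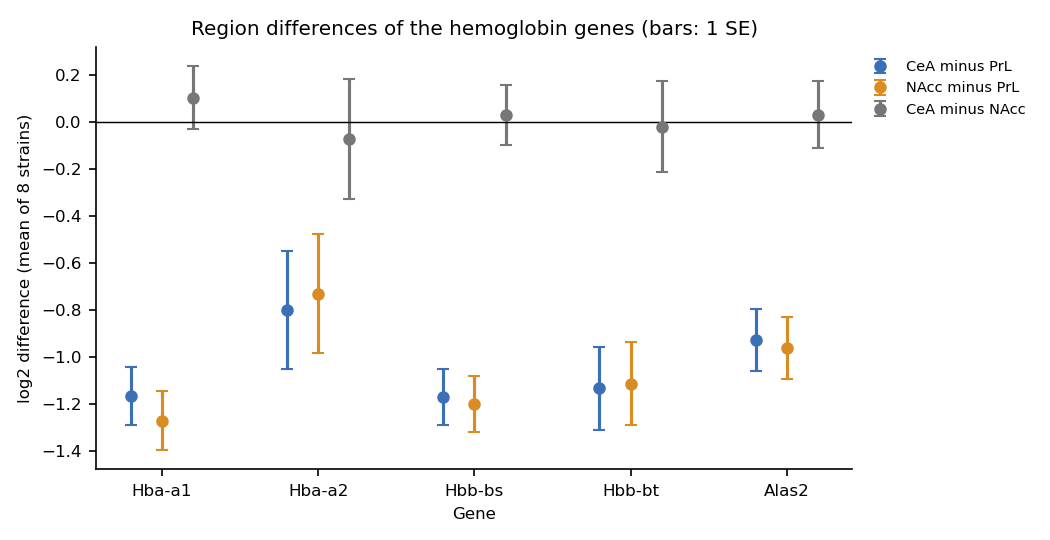
Log2 differences between regions (y axis), averaged over 8 strains, for each hemoglobin gene (x axis), with bars of 1 SE from the limma voom model. CeA minus PrL and NAcc minus PrL lie between -0.73 and -1.27 and CeA minus NAcc near 0, within -0.07 to 0.11.

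Within the 3 sequencing trays, fitted separately, Hba-a1, Hbb-bs, Hbb-bt and Alas2 were called higher in PrL against both regions in every tray. Hba-a2 was called in trays 1 and 3 and not in tray 2 (adjusted p 0.525 against CeA and 0.593 against NAcc). Next, the 10 libraries marked by Slc17a7 in NAcc or CeA or by Drd2 in PrL were left out. CeA libraries with choroid plexus genes were left out in a separate fit. In both fits the other 4 genes were again called against CeA and NAcc. Hbb-bs then differed by -1.18 and -1.06 in CeA minus PrL on the log2 scale, in that order, and Hba-a2 by -0.82 and -0.76.

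Whether the region differences varied between strains was asked with an interaction term. Hba-a1, Hbb-bs, Hbb-bt and Alas2 had no region-by-strain interaction at an adjusted p under 0.05 (limma moderated F test), where 34.8% of all genes did. The adjusted p of these genes were 0.978, 0.919, 0.998 and 0.928, in that order. At an unadjusted p under 0.05 the count was 0 of 5 by limma, edgeR and DESeq2. For Hba-a2, with counts at or near 0 in 6 strains, this term cannot decide whether the region difference varied between strains. Its adjusted p in the same F test was 0.178. Without the B6 PrL library with the most globin counts, a setting chosen after seeing the data, it was 8.04e-06. The median PrL to CeA ratio of Hbb-bs over 6 mice was 1.25 in B6, 1.99 in NOD, 2.07 in PWK, 2.08 in WSB, 2.29 in NZO, 2.37 in S129, 2.55 in AJ and 3.17 in CAST, and the ranges of all strains overlapped.

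Female and male mice were compared within each region. None of the 5 genes was called in CeA, NAcc or PrL, where 0.142%, 0.0881% and 0.102% of all genes were. At an unadjusted p under 0.05 limma gave 0 of 5 in each region, edgeR 1 and DESeq2 2 in PrL, and both gave 0 in CeA and NAcc. Among the 4 genes with counts in all strains, the largest differences were in PrL, at -0.30 ± 0.17 for Hbb-bs and -0.29 ± 0.18 for Hba-a1 (log2, female minus male, SE). Their adjusted p in limma were 0.702 or more. For Hba-a2, with counts at or near 0 in 6 strains, these tests cannot decide whether the sexes differed. Its value in PrL was -0.42 ± 0.23 (limma adjusted p 0.690). The highest PrL library of males was at 38.2 CPM, from B6 mouse 33, and that of females at 8.25 CPM. Alas2, on the X chromosome, had differences of 0.00 ± 0.17 in CeA, 0.09 ± 0.16 in NAcc and -0.12 ± 0.18 in PrL, with adjusted p of 0.896 or more. Its medians in PrL were 2.40 CPM in 24 females and 2.91 CPM in 24 males, with overlapping ranges.

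The level of Hbb-bs, the gene for which this was computed, was related between regions of a mouse. After the strain mean of each region was taken off, Hbb-bs correlated between CeA and NAcc over 47 mice with Pearson's r of 0.705 and Spearman's rho of 0.641 (permutation p within strains 1e-05 and 3e-05, the first the smallest that 100000 permutations can give). Between CeA and PrL over 48 mice r was 0.464 and rho 0.388 (permutation p 0.00263 and 0.0143), and between NAcc and PrL over 47 mice r was 0.499 and rho 0.475 (permutation p 0.00172 and 0.00281). Over these 3 relations the Benjamini-Hochberg adjusted p of r, from the same two-sided permutations, were 3e-05, 0.00263 and 0.00258, and those of rho 9e-05, 0.0143 and 0.00421. Without the 2 mice farthest from the median in the first region, r was 0.673, 0.459 and 0.416. The 3 regions of a mouse were in different trays. Split by the tray of the first region, r was 0.587 to 0.805 for CeA and NAcc, 0.256 to 0.526 for CeA and PrL and 0.242 to 0.675 for NAcc and PrL, positive in all 9 sets of 15 or 16 mice.

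**Figure D4:**
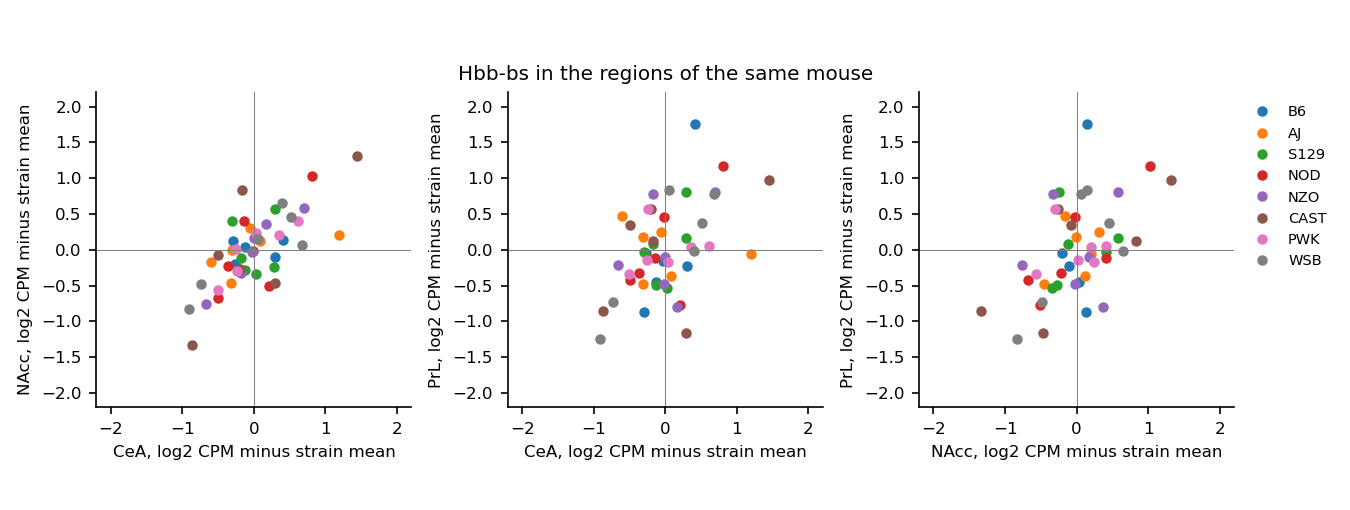
Hbb-bs in pairs of regions of the same mouse, as log2 CPM minus the mean of the strain in that region (both axes), with 1 point per mouse coloured by strain. CeA and NAcc lie closest to the diagonal (r = 0.705); the B6 mouse with the highest PrL value of its strain lies 1.76 above the strain mean in PrL, 0.41 above it in CeA and 0.14 above it in NAcc.

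The 4 genes with counts in all strains also moved together from library to library. After strain-by-region means were taken off, Hbb-bs had an r of 0.95 with Hba-a1, 0.83 with Alas2 and 0.83 with Hbb-bt over 143 libraries, which share library size and tissue piece, and these are descriptions without a test. Outside the set the genes most like Hbb-bs in this measure were Hes5 (r = 0.45), Ptn (0.38) and C1qb (0.36), and those most like Hba-a1 were Hes5 (0.44), Ttyh1 (0.34) and Dda1 (0.33). Hes5 (0.38), Ptn (0.37) and Mettl23 (0.35) were nearest to Hbb-bt, Jag1 (0.35), Hes5 (0.33) and Trim30a (0.30) to Alas2, and Wdr83 (0.37), Eno1b (0.36) and Zfp707 (0.34) to Hba-a2. For Hba-a1, Hbb-bs, Hbb-bt and Alas2 these values lay below those among the 4 genes themselves, 0.71 to 0.95, whereas Hba-a2 had values of 0.43 to 0.49 with the other members.

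Over the 24 strain-by-region means of log2 CPM other genes were nearest. Hba-a2 was most like Rps18 (r = 0.95), Rpl35a (0.92) and H2-K1 (0.91), and its r with Hba-a1 was -0.37. Among the genes most like Hbb-bs were Kansl2 (0.91) and Tmem256 (0.89), beside 0.96 with Alas2 and 0.88 with Hba-a1. Hba-a1 was most like Inpp4a (0.89), Arhgef4 (0.87) and Rpl22 (0.85), Hbb-bt like Sox18 (0.80), Rnf141 (0.79) and Sod3 (0.79), and Alas2 like Kansl2 (0.87), Rnf141 (0.86) and Fbl (0.86). The means of a strain share mice, and these values are descriptions.

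Other globin genes were nearly absent or had their own pattern. The embryonic genes Hbb-bh0 and Hbb-bh2 had 0 counts in all 143 libraries, Hba-x had 1 count in 1 library, and Hbb-y and Hbb-bh1 reached at most 3 and 2 counts. Hbq1a, a theta-like gene of the alpha locus, had medians of 30.5 counts in NZO, 30 in WSB and 22 in NOD, 12 in AJ, 8.5 in S129, 6 in B6, 1 in PWK and 0 in CAST, an order that follows neither Hba-a2 nor Hbb-bt. Neuroglobin (Ngb) and cytoglobin (Cygb), the globins of neurons and of fibroblast-like cells, were the 2 of 10 other globin genes that passed the filter. Both were higher in CeA than in PrL, by 2.23 ± 0.22 and 0.52 ± 0.05 on the log2 scale (SE, adjusted p 3.21e-17 and 3.08e-18), opposite to hemoglobin.

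The other enzymes of heme synthesis were called in both directions. Of the 8 listed, all tested, 4 were called in CeA against PrL, 2 higher and 2 lower, where 73.5% of all genes were called in either direction, and in NAcc against PrL 3 were higher and 3 lower, where 82.4% were. Alas1, the ubiquitous synthase, was lower in CeA by a log2 difference of -0.24 ± 0.02 (adjusted p 2.84e-23). The list's median difference was -0.01 in CeA minus PrL, beside 0.00 over all genes. Of the 12 tested genes for handling heme, hemoglobin and iron, 3 were higher and 4 lower in CeA than in PrL, and 5 were higher and 2 lower in NAcc than in PrL.

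Markers of erythroid cells were scarce. Slc4a1, the band 3 anion exchanger of red cells, had a median of 0 CPM in CeA and NAcc and of 0.099 CPM in PrL, with a highest value of 0.771 CPM, and had reads in 35 of 48 PrL, 22 of 48 CeA and 18 of 47 NAcc libraries. The erythroid factor Gata1 had reads in 2 CeA, 1 NAcc and 5 PrL libraries. Klf1, another erythroid factor, had medians of 0.127, 0.131 and 0.0919 CPM in CeA, NAcc and PrL. Of 22 listed erythroid genes 7 passed the filter, among them the membrane skeleton genes Epb41 and Ank1. In CeA minus PrL 2 of them were higher and 2 lower, where 73.5% of all genes were called, and in NAcc minus PrL 4 were higher and 1 lower, where 82.4% were. Gypc, the gene of glycophorin C, was lower by -1.75 ± 0.12 in CeA (adjusted p 5.35e-27) and by -2.52 ± 0.14 in NAcc (adjusted p 1.38e-34). Epb41 and Sptb of the same list went the other way, higher in CeA than in PrL by 0.20 ± 0.07 and 0.24 ± 0.04 (adjusted p 0.00687 and 1.27e-06).

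Genes of vessel wall and meninges were higher in PrL more often than lower, whereas those of platelets and choroid plexus were not. None of 9 neutrophil genes passed the filter, and their summed level had a median of 0.172 CPM in CeA (range 0.0318 to 1.45), 0.123 in NAcc (0 to 2.74) and 0.548 in PrL (0 to 4.12). Higher in PrL than in CeA were 9 of 11 endothelial genes, 8 of 8 mural cell genes and 5 of 6 tested genes of meninges and fibroblasts, with median log2 differences of -0.19, -0.32 and -1.16, where 37.1% of all genes were higher in PrL. Against NAcc, 6, 5 and 6 genes of these lists were higher in PrL, where 39.4% of all genes were. Itga2b, the 1 platelet gene that passed the filter, was higher in CeA by 0.39 ± 0.08 (adjusted p 4.28e-06) and in NAcc by 0.96 ± 0.08 (adjusted p 1.94e-23) than in PrL, opposite to hemoglobin. Of 6 choroid plexus genes 4 were higher and 1 lower in CeA than in PrL, with a median log2 difference of 2.92. In NAcc, 3 were higher and 1 lower than in PrL. Of all genes, 73.5% and 82.4% were called in either direction in these contrasts. Choroid plexus genes summed to 100 CPM or more in 15 of 48 CeA libraries. The summed level of the meninges list was 13.7 to 113 CPM in CeA, 8.25 to 33.0 in NAcc and 14.0 to 136 in PrL, with medians of 29.5, 18.5 and 62.5. The part of these genes in the higher hemoglobin RNA of PrL was not tested.

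Between strains, related genes were compared as B6 minus the mean of the other 7, in a model per region. Of 29 tested genes of the lists for heme synthesis, heme handling, other globins and erythroid cells, 13 were called in CeA, 15 in NAcc and 11 in PrL, and in NAcc 8 when the library of B6 mouse 17 was left out. The background was 41.5%, 36.3% and 38.3% of all genes. Called in the same direction in all 3 regions were Alad, the second enzyme of heme synthesis, lower in B6 with log2 differences of -0.72, -0.63 and -0.60 in CeA, NAcc and PrL, and Blvrb, biliverdin reductase B, lower with -0.50, -0.48 and -0.55. Higher were Uros, uroporphyrinogen III synthase, by 0.32, 0.41 and 0.49, Ftl1, the ferritin light chain, by 0.67, 0.61 and 0.69, and heme oxygenase Hmox2 by 0.27, 0.32 and 0.25. The largest SE among these was 0.11 and the largest adjusted p 5.11e-04. Among other globins Ngb was called in NAcc alone, at -1.59 ± 0.61 (adjusted p 0.0399), and among erythroid genes Ank1 (-0.74 ± 0.28, adjusted p 0.0390) and Gypc (0.68 ± 0.22, adjusted p 0.0163) in NAcc and Tent5c (0.66 ± 0.23, adjusted p 0.0167) in CeA. Of the 5 B6 NAcc libraries, 3 had Slc17a7 at 100 CPM or more, and this comparison was not refitted without those 3. Their part in the NAcc calls was not tested.

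Of 11 endothelial genes 9 were called higher in B6 in CeA, 7 in NAcc and 3 in PrL, where 1 was lower. Of 8 mural genes 4, 3 and 4 were called higher and 1 lower in PrL. The background in either direction was again 41.5%, 36.3% and 38.3% of all genes. Cldn5, the tight junction claudin of endothelium, was higher by 0.52, 0.43 and 0.31 in CeA, NAcc and PrL, Ly6c1 by 2.00, 1.92 and 1.62 and Slco1a4 by 0.50, 0.33 and 0.16, and among mural genes Tagln by 1.28, 0.97 and 0.76 and Vtn by 0.64, 0.50 and 0.34, with adjusted p of 0.0482 or less in limma. In NAcc, Slc17a7, Neurod2 and Neurod6, genes of cortical projection neurons, were higher in B6 by 3.35, 3.22 and 2.74 (adjusted p 0.00403, 0.00517 and 0.0305), beside the 3 B6 NAcc libraries with high Slc17a7. Platelet gene Itga2b was higher in B6 PrL by 0.47 ± 0.11 (adjusted p 8.62e-04). The part of these genes in the strain pattern of hemoglobin was not tested.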

How the data were processed

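Poly(A) RNA of 3 brain regions from 48 mice was sequenced with paired ends. The authors aligned reads with STAR 2.7.3a to GRCm39 (Ensembl 105) and deposited raw counts per gene for 240 libraries, some of them second runs, and log2 CPM values of 14785 genes in 143 libraries, which they made with limma 3.52.2 and edgeR 3.38.1. The deposited log2 values were used only to choose the 143 libraries and a gene set. Whether multi-mapped reads were counted is not given in the sources used here.

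From the counts, CPM were computed on library totals. The 14764 genes with a mean of at least 1 CPM were fitted with limma 3.58.1 voom after TMM scaling (edgeR 4.0.16, R 4.3.3), with strain-by-region means, sex and tray, and adjusted by Benjamini-Hochberg over all genes at 0.05. Totals of 14942820 to 33951616 counts left at least 71 alpha and 135 beta globin counts in every library. Within a region each library is from another mouse, so p-values of the sex and B6 comparisons measure the spread between mice. The region model had no mouse term and took the libraries of a mouse as independent. For Hbb-bs in CeA minus PrL its SE was 0.120, and 0.077 with the mouse as a fixed block. Alternatives were DESeq2 1.42.0, edgeR's quasi-likelihood test, other scalings, filters and runs, and libraries left out. The scripts were tested on simulated data.

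Regions of a mouse share its number in the labels and come from the same animal. The median correlation of residuals over genes was 0.0658 for the same mouse and 0.00205 for different mice between CeA and NAcc, 0.0338 and 0.00351 between CeA and PrL, and -0.00496 and 2.17e-05 between NAcc and PrL. The members and gene lists were chosen with earlier results of these data known. Genes of the lists were named when called in the same direction in all 3 regions between B6 and the other strains, or otherwise as the 3 with the largest absolute difference among genes called in any region. Likeness was Pearson's r of log2 CPM. A few genes that met these rules are not reported here. Sequences are from RefSeq (GRCm38.p6) and GENCODE (GRCm38), and no coordinates of the authors' build were used.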

Additional observations from a re-analysis of the deposited data

Results flagged for a closer look

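Single libraries stood apart for the hemoglobin genes. In each strain and region with a median of at least 10 counts, the gap of the highest or lowest library to its neighbour was set against the range of the group (Dixon's criterion). Of 100 groups, 19 exceeded it, and all 19 were the highest library of their group. The criterion's chance rate of about 1 in 20 assumes independent groups and normally distributed values. The groups were not independent, because the genes were measured in the same libraries and several flags came from 1 library. The values were CPM without a log. The 19 flags therefore cannot be compared with that rate and are given as a description.

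In PrL of B6 mouse 33 all 5 genes were flagged, with 67.4 CPM of Hba-a1, 38.2 of Hba-a2, 151 of Hbb-bs, 18.9 of Hbb-bt and 6.92 of Alas2. In CeA of CAST mouse 44, 4 genes were flagged, with 79.3 CPM of Hba-a1, 110 of Hbb-bs, 6.03 of Hbb-bt and 8.73 of Alas2, and this mouse also had the highest Hbb-bs of its strain in NAcc and PrL. The CeA library of AJ mouse 5, left out above for its low Slc17a7, had Slc17a7 at 79.0 CPM and Drd2 at 317 CPM. Its flagged genes were Hba-a1 at 41.1 CPM, Hbb-bs at 60.1, Hbb-bt at 1.47 and Alas2 at 2.61. The others were Hba-a1 at 27.9 CPM in CeA of NZO mouse 34, Hba-a1 at 33.4 and Alas2 at 3.51 in NAcc of PWK mouse 16, Hbb-bs at 83.5 in PrL of PWK mouse 24, and Hbb-bt at 3.87 in NAcc of B6 mouse 41 and at 1.46 in NAcc of AJ mouse 37.

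Of the 29 tested genes of the heme, globin and erythroid lists, 16 differed between strains in their region differences (limma moderated F test of the interaction, adjusted p under 0.05), where 34.8% of all genes did.

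The B6 NAcc library that the comparisons did not use had Hba-a2 at 4.67 CPM in its first run (77 counts) and at 5.73 CPM in its second (185 counts), with Hba-a2 shares of 30.6% and 37.9% of alpha counts. In runs not used here of libraries that were used, the Hba-a2 share was 21.5 to 36.0% in B6 and 15.6 to 37.2% in S129, and no library of the other 6 strains had more than 3 counts.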

How the results depend on the processing

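Of 1261 values recomputed under alternatives, 1249 were kept and 12 were not. A tested gene or correlation was kept if its call stayed and a called direction did not turn. A count of called genes was kept within a set fold of the main count, so 4 of 5 hemoglobin genes in tray 2 counted as kept. A share or level was kept if its strain median moved by no more than the SD over all libraries of the strain. That SD includes differences between regions, so it is a loose limit. With a filter at a mean of 5 CPM, Hba-a1 and Hbb-bs were left and 2 of 2 were called against PrL in both contrasts. Hba-a2 lost its call in CeA minus PrL and NAcc minus PrL under edgeR (-1.41 and -1.22, adjusted p 1) and in tray 2 alone (-0.71 and -0.56). The interaction count was 1 with no filter on low counts (Hba-a2, limma F test, adjusted p 0.0283). It was also 1 without the highest B6 PrL library (Hba-a2, same test, adjusted p 8.04e-06). With Hba-a2 at or near 0 counts in 6 strains, neither value can decide whether its region difference varied between strains. The cause was not tested. With the mouse as a replicate block, Hba-a2 was at -0.80 and -0.73 with an estimated correlation and at -1.19 and -1.17 with a fixed replicate block, Hbb-bs at -1.17 in CeA minus PrL under both, and the block changed no call. Related genes called between B6 and the other strains in NAcc ranged from 8 to 17 when 1 B6 NAcc library was left out, and in PrL were 17 of 53 with no filter, which tests more genes. Low counts limit Hba-a2 outside B6 and S129 and Hbb-bt shares in WSB, S129 and AJ. Settings by tray and over B6 and S129 alone were chosen after seeing the data. So were those without libraries marked by Slc17a7, Drd2 or choroid plexus genes, or without the highest B6 PrL library.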
